A study of Mus musculus with 6 samples.

Results

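The enzymes of serine synthesis and of the folate one-carbon pathway were described in HT22 cells, an immortalized mouse hippocampal neuronal line, with and without aluminum. They were chosen by gene symbol as the 9 genes Phgdh, Psat1, Psph, Shmt1, Mthfd1, Shmt2, Mthfd2, Mthfd1l and Aldh1l2, of 21878 genes in the deposited expression table, and all 9 passed the filter on low values. RNA was measured in 6 libraries. These were the input libraries of an m6A immunoprecipitation experiment, whose fragmented RNA skipped the m6A enrichment. There were 3 control libraries and 3 libraries of cells exposed to 120 µM aluminum maltolate (Al group), a soluble complex of aluminum with the ligand maltol. The methods give 24 h for the study's Al treatments, while the labels give a dose range up to a higher concentration. The samples titled with the letter M were taken as the Al group, because the design text names only a control and an Al-treated group and the study's own comparison sets M against C. The replicates are described as biological. The sequenced controls are named only control, a name that the methods give to cells in medium alone, beside a separate maltol group. If the controls were in medium alone, effects of maltol and aluminum cannot be told apart here. The labels name no transgene, and all libraries came from 1 cell line.

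Cells make serine from the glycolytic intermediate phosphoglycerate through the enzymes Phgdh, Psat1 and Psph in turn. Serine then hands a carbon unit to tetrahydrofolate, in the cytosol through Shmt1 and in mitochondria through Shmt2, leaving glycine. In mitochondria Mthfd2 oxidises the folate-bound unit, Mthfd1l releases it as formate and Aldh1l2 oxidises it to carbon dioxide, while in the cytosol the trifunctional enzyme Mthfd1 takes formate back onto folate for purine and thymidylate synthesis. Several serine synthesis and mitochondrial folate genes are textbook targets of the transcription factor ATF4, and Mthfd2 is known for low expression in most adult tissues and high expression in proliferating cells.

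The data were deposited as FPKM, fragments scaled to the length of the transcript and to the reads of the library. The reads behind the FPKM ranged from 21125631 to 26670978 in the Al libraries and from 38059492 to 44556768 in the control libraries, so the Al values rested on fewer reads. The 50 most abundant genes held 30.0% to 32.5% of the summed FPKM in the Al libraries and 18.0% to 19.4% in the control libraries. For tests, FPKM were divided by size factors (0.802 to 0.932 in Al, 1.17 to 1.21 in control), and these values are called scaled FPKM. The choice matters here: FPKM as deposited move the log2 fold changes by a median of -0.48 over all tested genes relative to scaled FPKM, and TPM move them by -0.79. Of the 10 neuronal markers Snap25 and Nefm were at 0 in all 6 libraries, Rbfox3, Map2 and Nefl were at or near 0, and the other 5 were tested, with mean control levels of 11.8 (Dlg4), 6.39 (Syn1), 4.48 (Tubb3), 2.43 (Eno2) and 0.247 (Syp) scaled FPKM. The summed scaled level of that list was 25.2 to 25.6 in control and 16.0 to 20.2 in Al libraries, and 1 of its genes was called lower (Syn1). The fibroblast list (Col1a1, Col1a2, Col3a1, Pdgfra and Dcn) summed to 2075 to 3351 in control and 3580 to 5116 in Al libraries. These sums are mostly collagen: Col1a1 was called higher, while Pdgfra (-1.22) and Dcn (-1.64) were called lower. The astrocyte list summed to 12.1 to 19.8 and 2.54 to 3.54, mostly through Slc1a3 (15.9 and 1.96 on average), while Aldoc was called higher. The list of oligodendrocytes summed to 0.171 to 0.302 and 0.496 to 1.38, with Sox10 called higher (2.29, from 0.0191 to 0.506 on average). The list of microglia and blood summed to 33.5 to 41.3 and 23.8 to 90.5, mostly through Tmem119. Tmem119 had 72.0 FPKM in Al replicate 1 and 32.1 and 21.3 FPKM in the other Al libraries. Cx3cr1 of that list was called higher (2.14, from 0.0561 to 0.647 scaled FPKM on average). The control means of Sox10 and Cx3cr1 were below the 0.1 added before taking logs. Aqp4 and P2ry12 were at 0 throughout. The part of these shifts in the results was not tested. In bulk RNA, fewer cells of a type and less RNA per cell cannot be told apart.

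A gene was called with limma where the unadjusted P was under 0.05 and the log2 fold change was beyond 0.58 in either direction, and the adjusted P given is the Benjamini-Hochberg value over 12889 tested genes. These thresholds follow the study's methods. In the Al group 1 of the 9 enzymes was called higher (Mthfd1) and 3 were called lower (Psph, Shmt2 and Mthfd2), while 5 were not called. The background was high, since 26.2% of all tested genes were called higher and 24.4% lower. That split was 3375 genes higher and 3143 lower on scaled FPKM, against 1805 (14%) and 5417 (42%) on FPKM as deposited. The scaled values of the 3 Al libraries all lay above the 3 control libraries for 2 enzymes (Shmt1 and Mthfd1) and all below for 3 (Psph, Shmt2 and Mthfd2). Among all tested genes these shares were 35.1% and 33.1%. The median log2 fold change of the 9 enzymes was -0.01, beside 0.03 over all tested genes. Members of the group moved in both directions.

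**Figure D1:**
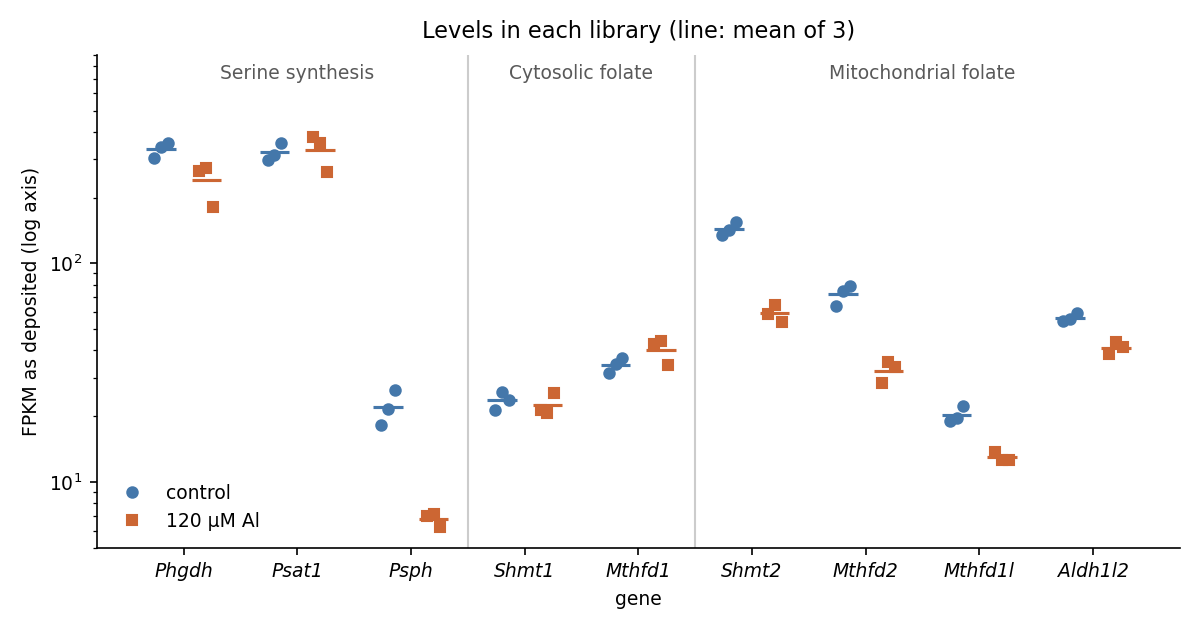
FPKM as deposited of the 9 enzymes on a log axis, with 1 point per library (circles, control; squares, 120 µM Al) and a line at the mean of 3. The Al libraries lie below the control libraries for 6 enzymes, among them all 4 mitochondrial ones, and overlap them for Psat1 and both cytosolic enzymes; on this scale 50.1% of all tested genes lie wholly below.

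All 9 enzymes were well expressed. Their levels lay between percentiles 80.4 and 99.2 of the 21878 deposited genes, on 416 to 39444 reads per gene and library. The deposited genes include those too low to be tested, so the enzymes rank lower among tested genes alone. In control cells Phgdh and Psat1 led with 281 ± 23.3 and 271 ± 27.5 scaled FPKM (SD, n = 3), and their libraries overlapped. Shmt2 followed at 121 ± 9.15, then Mthfd2 at 61.0 ± 6.40, Aldh1l2 at 47.6 ± 2.46 and Mthfd1 at 28.9 ± 2.40, each apart from its neighbours. Shmt1 (19.9 ± 1.69), Psph (18.6 ± 3.54) and Mthfd1l (17.1 ± 1.59) closed the order, and neighbours among these overlapped. In the Al group Psat1 stood at the head with 396 ± 103 and Phgdh at 287 ± 79.4, which overlapped. Mthfd2 moved from the fourth place to the sixth, behind Aldh1l2 and Mthfd1, although these 3 overlapped in turn. Psph came last at 8.05 ± 1.20 scaled FPKM, below every library of Mthfd1l.

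The serine synthesis enzymes did not change alike. Psph, the phosphatase that releases free serine, fell to 0.438 of its control level, whereas the enzymes before it were not called. Psph had 18.3, 21.6 and 26.3 FPKM in the control libraries and 7.00, 7.14 and 6.22 FPKM in the Al libraries. Every Al library was far below every control library, both as deposited and scaled. The log2 fold change was -1.19 ± 0.16 (SE; limma adjusted P = 0.000329), with a 95% interval from -1.57 to -0.82. The FPKM of Psph came from 416 to 591 reads in the Al libraries, the thinnest of the 9 enzymes. In the GENCODE annotation Psph, on chromosome 5 from 129765558 to 129787449 (GRCm38, minus strand), overlaps Cct6a on the opposite strand over 452 bases. Cct6a, a subunit of the cytosolic chaperonin, was called higher with a log2 fold change of 0.71. Whether the counting used strand is not stated, and the part of this overlap was not tested.

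Phgdh, the dehydrogenase that commits phosphoglycerate to serine, had 304, 342 and 356 FPKM in control and 266, 272 and 182 FPKM in Al libraries. Al replicate 3 was the lowest of the 6. On the scaled values, 257, 283 and 303 in control against 331, 334 and 195 in Al, the other two Al libraries lay above all controls and replicate 3 below them. The log2 fold change was -0.01 ± 0.22 (limma adjusted P = 0.967, 95% interval -0.51 to 0.49), and it was -0.80 with TPM and -0.76 with quantile normalization, where Phgdh was called lower. Psat1, the aminotransferase of the pathway, had 298, 314 and 355 FPKM in control and 381, 355 and 261 FPKM in Al libraries. The groups overlapped, and replicate 3 of the Al group was again the lowest of its group. Its log2 fold change was 0.52 ± 0.21 (limma adjusted P = 0.0624), and without Al replicate 3 it was 0.76 and was called higher.

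A ratio of 2 genes within a library does not depend on any single factor that scales the whole library. Psat1 to Phgdh stood at 0.980, 0.916 and 0.998 in control and 1.43, 1.30 and 1.43 in Al libraries. Replicate 3 of the Al group, low for both genes, sat with the other Al libraries in this ratio. Psph to Phgdh was 0.0600, 0.0632 and 0.0738 in control and 0.0264, 0.0262 and 0.0342 in Al libraries, without overlap. Psph thus made up 3.23 ± 0.313% of the summed FPKM of the 3 enzymes in control and 1.19 ± 0.168% in Al. Phgdh values are uncertain in another respect: 19 other annotated genes, mostly processed pseudogenes, hold a stretch of at least 150 bases that is at least 90% identical to its transcript, and none of them is in the expression table. Psat1 has 1 such copy.

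The folate enzymes come in cytosolic and mitochondrial counterparts, and the promoters of the SHMT pair and of Mthfd1 and Mthfd2 are shown because these are the genes that moved apart. Each window runs from 250 bases before to 50 bases after the RefSeq start site (GRCm38.p6), 5′ to 3′ along the gene. Capitals mark the CCAAT box (CCAAT, searched on both strands, so that ATTGG is its reverse). The windows are chr11:60811216-60811515 (minus strand) for Shmt1, chr10:127522395-127522694 (minus) for Shmt2, chr12:76254982-76255281 (plus) for Mthfd1 and chr6:83317555-83317854 (minus) for Mthfd2.
Shmt1: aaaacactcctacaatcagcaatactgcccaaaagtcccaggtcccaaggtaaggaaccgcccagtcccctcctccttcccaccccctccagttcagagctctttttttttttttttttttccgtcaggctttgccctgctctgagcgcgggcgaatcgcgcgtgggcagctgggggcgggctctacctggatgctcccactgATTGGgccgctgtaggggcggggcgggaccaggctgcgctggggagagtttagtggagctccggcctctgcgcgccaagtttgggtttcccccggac
Shmt2: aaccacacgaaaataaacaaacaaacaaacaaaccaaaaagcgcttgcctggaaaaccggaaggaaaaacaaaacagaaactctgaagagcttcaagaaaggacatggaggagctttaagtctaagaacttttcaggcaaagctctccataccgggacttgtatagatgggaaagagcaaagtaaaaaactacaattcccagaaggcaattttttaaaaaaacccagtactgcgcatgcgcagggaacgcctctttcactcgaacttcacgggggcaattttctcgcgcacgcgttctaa
Mthfd1: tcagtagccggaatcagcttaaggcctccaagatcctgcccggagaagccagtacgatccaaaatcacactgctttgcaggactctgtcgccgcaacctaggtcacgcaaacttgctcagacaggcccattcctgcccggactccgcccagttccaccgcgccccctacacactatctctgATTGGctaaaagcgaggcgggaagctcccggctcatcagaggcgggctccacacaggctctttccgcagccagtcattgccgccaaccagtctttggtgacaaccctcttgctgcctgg
Mthfd2: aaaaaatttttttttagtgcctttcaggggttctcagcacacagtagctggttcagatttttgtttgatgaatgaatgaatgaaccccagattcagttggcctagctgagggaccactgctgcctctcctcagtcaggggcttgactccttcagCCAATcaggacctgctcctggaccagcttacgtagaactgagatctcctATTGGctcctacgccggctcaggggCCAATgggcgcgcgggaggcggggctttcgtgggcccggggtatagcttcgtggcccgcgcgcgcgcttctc
The Shmt2 window held no CCAAT box, the Shmt1 and Mthfd1 windows held 1 each and the Mthfd2 window held 3. RefSeq windows were at hand for 8 of the 9 enzymes, 9 windows in all, since Psat1 had 2. A CCAAT box was in at least 1 window of 6 of these enzymes, and the second Psat1 window held none. Of 32851 mouse promoter windows of the same length 37.4% held the box, a share per window and not per gene. The C/EBP-ATF element TGATGNAA, a textbook binding motif of ATF4, was searched on both strands and was in the windows of 0 of the 8 enzymes and in 3.97% of all windows. The E-box CACGTG was also in 0 of 8, beside 7.15% of all windows. Only 1 enzyme was called higher, and TGATGNAA and CACGTG had no match, so matches could not separate enzymes called higher from those called lower. The search covers only these 300 bases.

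Of the cytosolic enzymes Mthfd1 was called higher and Shmt1 was not called. Mthfd1, the cytosolic trifunctional folate enzyme, rose to 1.63 times its control level on scaled FPKM, although with TPM its log2 fold change was -0.08. Its FPKM were 31.5, 34.8 and 36.9 in control and 42.9, 44.0 and 34.1 in Al libraries. Al replicates 1 and 2 lay above all controls, while replicate 3 lay among them as deposited and above them once scaled (36.6 against at most 31.4). The log2 fold change was 0.71 ± 0.16 (limma adjusted P = 0.00416, 95% interval 0.35 to 1.07). It was no longer called with FPKM as deposited (0.22) or with quantile normalization (0.41). In the annotation Mthfd1 overlaps 3 genes on the opposite strand, the longest overlap being 19090 bases with the antisense gene Gm34868. None of the 3 is in the expression table, and the part of these overlaps was not tested.

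Shmt1, the cytosolic serine hydroxymethyltransferase, had 21.4, 25.8 and 23.8 FPKM in control and 21.4, 20.7 and 25.5 FPKM in Al libraries. The groups overlapped as deposited. On scaled FPKM the Al libraries (26.6, 25.4 and 27.4) lay above the control libraries (18.0, 21.3 and 20.3). The log2 fold change of 0.41 ± 0.10 (limma adjusted P = 0.00611) was below the threshold of 0.58, so Shmt1 was not called, and with FPKM as deposited the value was -0.07. Shmt1, on chromosome 11 from 60788104 to 60811718 (minus strand), overlaps Smcr8 on the opposite strand over 184 bases. Smcr8, a partner of C9orf72 in autophagy, went from 24.4 ± 1.72 to 77.4 ± 6.02 FPKM. The part of this overlap in the Shmt1 value was not tested. The longest transcripts of Shmt1 and Shmt2 share no identical stretch over 19 bases, and those of Mthfd1 and Mthfd1l none over 20 bases.

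In the mitochondrial arm the first enzymes in order fell. Shmt2, the mitochondrial serine hydroxymethyltransferase, fell to 0.574 and Mthfd2, the dehydrogenase and cyclohydrolase of the next steps, to 0.626 of their control levels on scaled FPKM, and Mthfd1l and Aldh1l2 were not called. Shmt2 had 135, 143 and 154 FPKM in control and 58.8, 64.8 and 53.8 FPKM in Al libraries. All Al libraries were below all controls, as deposited and scaled. The log2 fold change was -0.80 ± 0.14 (limma adjusted P = 0.00113, 95% interval -1.12 to -0.48). Shmt2 lies on chromosome 10 from 127517123 to 127522444 (minus strand) and overlaps only Ndufa4l2, over 32 bases and at 0.158 ± 0.0989 FPKM in control cells.

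Mthfd2 had 64.2, 74.8 and 78.6 FPKM in control and 28.3, 35.3 and 33.4 FPKM in Al libraries. The groups did not overlap on either scale. In the annotation Mthfd2 overlaps Gm43890 on the same strand over 2799 bases, a gene not in the expression table, and the part of this overlap was not tested. For Mthfd2 the log2 fold change was -0.68 ± 0.12 (limma adjusted P = 0.00143, 95% interval -0.95 to -0.40). The proportion of Mthfd2 to Shmt2 was 0.475, 0.523 and 0.509 in control and 0.482, 0.545 and 0.622 in Al libraries, and the groups overlapped.

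Mthfd1l, the mitochondrial formyl-tetrahydrofolate synthetase, had 19.0, 19.7 and 22.2 FPKM in control and 13.8, 12.6 and 12.6 FPKM in Al libraries. The Al libraries were lower as deposited and overlapped the controls once scaled. The log2 fold change was -0.16 ± 0.12 (limma adjusted P = 0.290, 95% interval -0.43 to 0.12), and with FPKM as deposited Mthfd1l was called lower (-0.64). Aldh1l2, the mitochondrial formyl-tetrahydrofolate dehydrogenase, had 54.5, 56.0 and 59.2 FPKM in control and 38.4, 43.7 and 41.3 FPKM in Al libraries, which overlapped the controls once scaled. Its log2 fold change was 0.03 ± 0.10 (limma adjusted P = 0.823, 95% interval -0.21 to 0.27), and with TPM Aldh1l2 was called lower (-0.76). Aldh1l2 overlaps D10Wsu102e on the opposite strand over 1056 bases, and that gene was called higher with a log2 fold change of 1.04. The part of this overlap was not tested. Within libraries Aldh1l2 to Mthfd2 went from 0.848, 0.748 and 0.753 in control to 1.36, 1.24 and 1.24 in Al, so Aldh1l2 exceeded Mthfd2 in each Al library and in no control library.

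**Figure D2:**
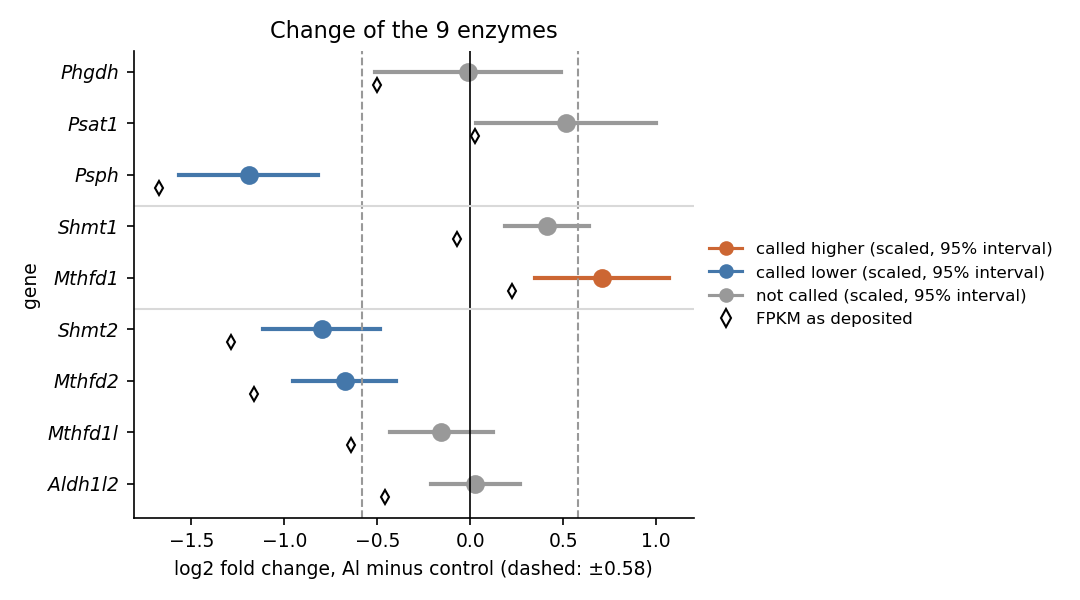
Log2 fold change of each enzyme, Al minus control, from scaled FPKM with its 95% interval (points and bars, n = 3 against 3) and from FPKM as deposited (open diamonds); dashed lines mark ±0.58. Psph, Shmt2 and Mthfd2 lie left of -0.58 on both scales, and Mthfd1 passes 0.58 only on scaled FPKM.

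The mitochondrial arm was then set against the cytosolic arm within each library, where a single scaling factor per library cancels. Shmt2 to Shmt1 was 6.33, 5.55 and 6.49 in control and 2.75, 3.13 and 2.11 in Al libraries. The groups were clearly apart, with a log2 difference of -1.22, which is 0.430 of the control ratio. Mthfd2 to Mthfd1 was 2.04, 2.15 and 2.13 in control and 0.661, 0.804 and 0.979 in Al libraries. The Mthfd2 level exceeded that of Mthfd1 in every control library and in no Al library, with a log2 difference of -1.39. Mthfd1l to Mthfd1 was 0.603, 0.567 and 0.603 in control and 0.322, 0.286 and 0.369 in Al libraries, a log2 difference of -0.87. Quantile normalization does not act by a single factor, and with it the log2 differences were -1.61, -1.47 and -0.66 in this order. With a correction for GC content they were -1.09, -1.41 and -0.87. For each of the 3 ratios the exact permutation test (two-sided, 3 against 3) gave P = 0.1, the smallest value that this design allows and so above 0.05, also when adjusted over the 3 ratios. The other ratios are given as descriptions. The ratios of Mthfd2 and of Mthfd1l share Mthfd1, so they are not independent.

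Summed over the 6 folate enzymes, the mitochondrial ones held 83.5 ± 0.524% of the FPKM in control and 69.8 ± 1.22% in Al libraries (SD, n = 3). Shmt2 alone held 85.9 ± 1.03% and 72.3 ± 4.07% of the SHMT pair. The sums themselves shift with the scaling. As deposited, the mitochondrial enzymes summed to 294 ± 20.8 FPKM in control and 146 ± 9.39 in Al, and the cytosolic enzymes to 58.1 ± 4.48 and 62.8 ± 2.77. On scaled FPKM the mitochondrial sums were 247 ± 19.1 and 172 ± 20.4, and the cytosolic sums 48.8 ± 3.70 and 74.5 ± 9.09. The mitochondrial enzymes remained the larger part in every library. All 9 enzymes together took 0.275 ± 0.0133% of the summed FPKM in control and 0.170 ± 0.0161% in Al libraries, where the 50 most abundant genes took a larger part.

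**Figure D3:**
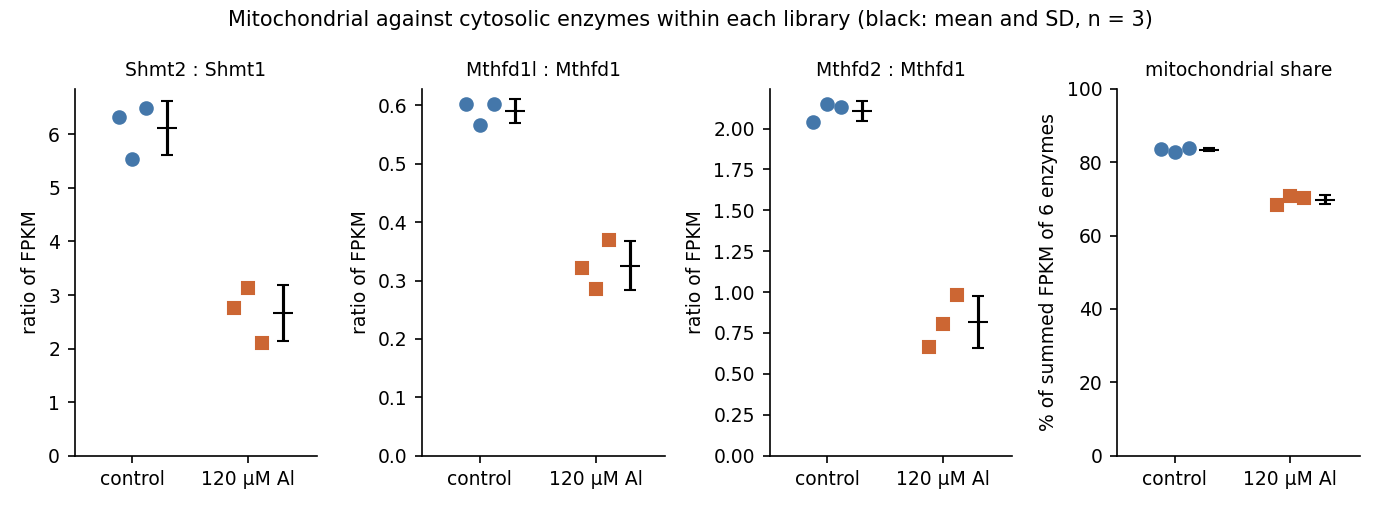
Ratios of FPKM of mitochondrial to cytosolic enzymes in each library (first 3 panels) and the mitochondrial enzymes' percentage of the summed FPKM of the 6 folate enzymes (last panel); black marks give mean and SD of 3 libraries. In every panel the 3 Al libraries lie below the 3 control libraries, for Shmt2 to Shmt1 at 2.11 to 3.13 against 5.55 to 6.49.

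The profiles most like those of 3 of the enzymes over the 6 libraries were found by Euclidean distance between centred log2 scaled values, among the 10348 genes whose FPKM averaged 1 or more. Nearest to Shmt2 were Cyc1, the cytochrome c1 of respiratory complex III, Mrpl10, a mitochondrial ribosomal protein, and Vdac3, an outer membrane channel, at distances of 0.10, 0.12 and 0.12. Nearest to Mthfd2 were Acad11, Suds3 and Msl3 (0.13, 0.13 and 0.15), and nearest to Phgdh were Churc1, Rhox2g and Timm13 (0.09, 0.12 and 0.15). These are descriptions over 6 libraries that share the group difference.

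The other genes of the pathway are given by list, to be read against all tested genes, of which 26.2% were called higher and 24.4% lower on scaled FPKM and 14% and 42% on FPKM as deposited. Of 14 genes of serine transport and use 13 were tested, 2 were called higher and 6 lower (1 and 7 as deposited), with a median log2 fold change of -0.17, beside 0.03 over all tested genes. Slc1a5, a neutral amino acid transporter, fell from 72.2, 72.5 and 66.4 FPKM in control to 5.32, 6.47 and 9.80 FPKM in Al libraries, a log2 fold change of -2.83 ± 0.16 (limma adjusted P = 6.44e-06). Slc1a4, the alanine, serine and cysteine transporter of the same family, fell from 32.0 ± 1.49 to 7.02 ± 1.59 FPKM (-1.71 on the log2 scale). The serine incorporator Serinc5 fell by 2.08 and the sideroflexin Sfxn3 by 1.43. Sfxn1, the mitochondrial serine carrier, named here after its values were seen, fell from 15.9 ± 1.03 to 5.69 ± 0.397 FPKM (log2 fold change -0.98, limma adjusted P = 0.000263). The decreases of these 5 named genes were also called with FPKM as deposited.

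Among other folate enzymes and carriers 14 of 16 genes were tested, 2 were called higher and 4 lower (0 and 7 as deposited), with a median of -0.23. On the scaled values the shares called were thus near or below those over all genes. Mtfmt, which formylates the mitochondrial initiator tRNA with formyl-tetrahydrofolate, went from 5.17, 4.48 and 5.23 FPKM to 0.753, 0.448 and 0.371 FPKM (log2 fold change -2.62 ± 0.27, limma adjusted P = 7.46e-05). Slc25a32, the mitochondrial folate carrier, fell by 0.99 on the log2 scale, from 3.45 ± 0.205 to 1.20 ± 0.0509 FPKM. The folate hydrolase Ggh rose by 0.85 and was not called with FPKM as deposited. Mthfd2l, the isozyme of Mthfd2 and also named after its values were seen, was not called: it had 7.35 ± 1.43 FPKM in control and 7.57 ± 0.599 FPKM in Al (log2 fold change 0.54, limma adjusted P = 0.0129).

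Of the 3 tested genes of glycine cleavage, which feeds the same folate pool in mitochondria, 2 were called higher (Gcsh, 0.78, and Amt, 0.69, the latter at a limma adjusted P of 0.0560) and 0 lower, and with FPKM as deposited neither call was kept. Of 4 genes in that list 1 was too low to be tested. In the methionine cycle 9 of 12 genes were tested, with 1 called higher and 1 lower (1 and 4 as deposited) and a median of -0.10. The gene called lower was Mat2b, the regulatory subunit of methionine adenosyltransferase, at -1.60. Of 13 purine synthesis genes 2 were called higher and 3 lower (1 and 7 as deposited), with a median of -0.14. Adssl1, an adenylosuccinate synthase, rose by 1.53, Ppat, which catalyses the committed step, by 0.93 (not called with FPKM as deposited), while Prps2 and Impdh1 fell by 1.39 and 1.28.

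The list of ATF4 and its textbook targets outside the 9 enzymes had 15 of 16 genes tested, 3 called higher and 7 lower, with a median of -0.57. With FPKM as deposited 1 was called higher and 10 lower, where 42% of all tested genes were called lower, against 24.4% on scaled FPKM. The largest decreases were those of the hormone Fgf21 (-2.66), the pseudokinase Trib3 (-2.47) and the glutathione-degrading enzyme Chac1 (-1.32). Trib3 went from 110, 123 and 102 FPKM to 13.8, 12.5 and 17.0 FPKM. Cebpb, a partner transcription factor, rose by 1.11. Atf4 itself, named after its values were seen, was not called and had 280, 330 and 321 FPKM in control and 303, 300 and 313 FPKM in Al libraries. On scaled FPKM its mean went from 261 to 360, a log2 fold change of 0.47 (limma adjusted P = 0.0176) that did not reach 0.58. The last list held 6 genes, the demethylase Fto and the mitochondrial biogenesis factors Ppargc1a, Nrf1, Tfam, Gabpa and Nfe2l2, the last pair because the name NRF-2 is used for either. On scaled FPKM 1 of them was called higher (Nfe2l2, 0.66) and 0 lower, with a median of 0.07. With FPKM as deposited 0 were called higher and 1 lower: Ppargc1a, the gene of PGC-1α and named after its values were seen, had 7.14 ± 0.797 FPKM in control and 3.80 ± 0.679 FPKM in Al libraries (log2 fold change -0.90 as deposited and -0.42 scaled).

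**Figure D4:**
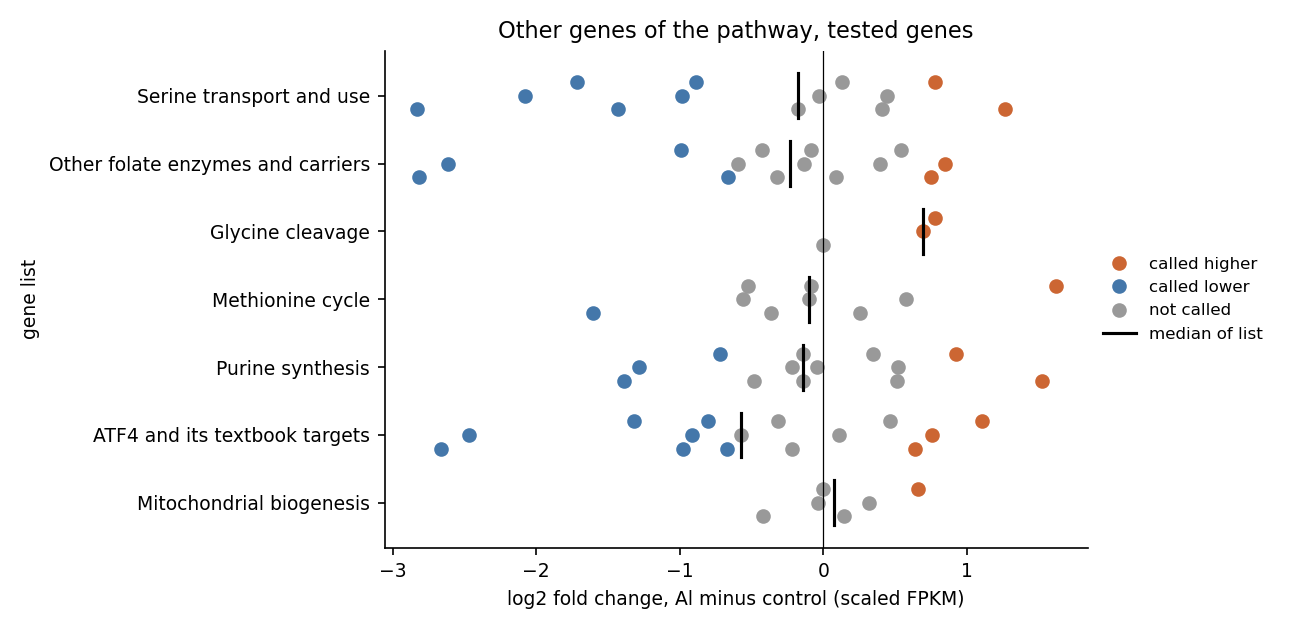
Log2 fold change, Al minus control, of each tested gene in 7 lists around the pathway, from scaled FPKM, with the median of each list as a black line; colour gives the call. The ATF4 list has the lowest median (-0.57) and serine transport holds the gene that fell most (Slc1a5, -2.83).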

How the data were processed

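The authors deposited FPKM per gene symbol and library. The study's methods name Trimmomatic, SortMeRNA and HISAT2 with GRCm38/mm10, whereas the submitters' processing notes list fastp, HISAT2, HTSeq and GRCm39. Libraries were made with a stranded mRNA kit. From the deposited FPKM, size factors (medians of ratios over 10337 genes above 0 in every library and averaging 1 or more) were computed, and log2(scaled FPKM + 0.1) was fitted with limma 3.58.1 (lmFit, eBayes with trend; R 4.3.3) for the 12889 genes whose FPKM averaged 0.1 or more. Fold changes are on that scale. FPKM values were whole multiples of 1 read, so whole reads were recovered for 17688 of 17688 genes above 0 (tolerance 1e-06) and tested with voom as an alternative. Only the recovery of reads and the main limma fit were tried on simulated data. In the simulation for limma few genes were changed, as many up as down, so it did not test the scaling. Copies were sought with minimap2 2.31-r1302 in GENCODE transcripts. The members and lists were chosen with earlier results of these data known. All 9 enzymes are named. Up to 4 called genes per list averaging an FPKM of 1 or more and changing most are named, with exceptions marked, and 1 gene that the rule names is not reported here. Columns of the table that belong to other samples numbered 0.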

Additional observations from a re-analysis of the deposited data

How the results depend on the processing

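Psph, Shmt2 and Mthfd2 stayed called lower in all 18 alternatives, and the 3 mitochondrial to cytosolic ratios kept their direction in all 11 alternatives run for them. The scaling decided most of the rest. Genes called higher numbered 1805 with FPKM as deposited and 1201 with TPM, and genes called lower numbered 5417 and 6848. The number of enzymes called higher was 0 with quantile normalization, with TPM and with the unscaled FPKM, and the number called lower was 6 with TPM. With TPM the log2 fold changes of Psat1 (-0.27), Shmt1 (-0.37), Mthfd1 (-0.076) and Aldh1l2 (-0.76) turned negative, as did Psat1 with quantile normalization (-0.20), Shmt1 with FPKM as deposited (-0.07) and Aldh1l2 with both (-0.36 and -0.46). Phgdh and Aldh1l2, both near 0, also changed sign when some single libraries were left out (to at most 0.26 and -0.036), and Phgdh with the GC correction (0.063). Leaving out 1 library at a time gave 1 to 2 enzymes called higher, the latter without Al replicate 3, where Psat1 was added, and 3 called lower each time, beside 3197 to 3468 genes called higher and 2962 to 3294 lower over the whole table. With quantile normalization those counts were 2859 and 3115. Limma voom on the recovered reads called 3411 genes higher and 3141 lower. Replicate numbers do not pair the samples: same-numbered libraries had correlations of -0.08, -0.06 and -0.11 in their deviations from the group means. With the replicate block 3352 genes were called higher and 3123 lower, of the enzymes 1 and 3, and the exact test within pairs gave P = 0.25 for each ratio, the smallest it can give. Each enzyme had at least 416 reads in every library. The lower number of reads behind the Al values, counted on genes, was not matched by thinning, and its source was not tested. The 3 libraries a group limit the ratio tests.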
